A study of Mus musculus with 6 samples.

Results

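The 10 genes described here are interferon-induced genes of the TRIM family, of nuclear bodies and of the PARP family: Trim30a, Trim21, Trim25, Pml, Sp100, Phf11d, Parp9, Dtx3l, Parp14 and Parp12. They were taken by symbol from the deposited table of FPKM (sequenced fragments scaled to transcript length and to the mapped fragments of the library), where each had 1 row among 15917 genes. The names were chosen with results of these libraries known, so the difference of each gene between the groups is given as a description and not tested. The samples were 3 libraries of bEnd.3 cells, an endothelial line from mouse brain, with a short hairpin RNA against Npc1 (replicates 4, 5 and 6), and 3 libraries of the same line with a control hairpin (replicates 1, 2 and 3). No interferon, other agent or time of culture is named in the labels, which call the control cells both shControl and WT. They do not say whether the replicates were separate cultures or clones, or whether 1 hairpin sequence served all 3 knockdown replicates, so the spread behind each p-value is that between these libraries and may be technical.

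Type I interferon binds a cell surface receptor, and the kinases on that receptor phosphorylate STAT proteins. These join IRF9 and bind a DNA element with repeated GAAA in the promoters of responding genes. TRIM proteins carry a RING domain that attaches ubiquitin to other proteins. PML, itself a TRIM protein, assembles nuclear bodies with the SP100 protein and SUMO, a small ubiquitin-like protein. PARP proteins attach ADP-ribose to their targets, and several are made in larger amounts after interferon, as is DTX3L, a ubiquitin ligase that binds PARP9. Endothelial cells respond to interferon and express these genes at a basal level.

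The Npc1 mRNA, target of the hairpin, had 0.45, 1.20 and 0.97 FPKM in knockdown libraries 4, 5 and 6, against 6.31, 6.63 and 7.27 FPKM in control libraries 1, 2 and 3 (limma adjusted p = 0.000723), as the labels say. Differences below are of log2(FPKM + 1), knockdown minus control, for the 10400 genes whose mean over all libraries reached 1 FPKM. Adding 1 lessens the differences of genes at a few FPKM. A gene is said to have risen or fallen where the limma p-value adjusted over all 10400 genes was under 0.05. By that rule 613 genes fell (5.89%) and 1251 rose (12.0%). The counts were 169 and 332 without control replicate 1, 222 and 428 without 2, 160 and 309 without 3, 1046 and 1907 without knockdown replicate 4, 1082 and 1553 without 5, and 248 and 474 without 6. Of the calls, 32.9% were lower in the knockdown, against 47.2% with the libraries centred on their medians, 47.4% after correction for GC content, 41.2% with quantiles made equal and 23.6% scaled to TPM. Knockdown replicate 4 stood furthest from its group, with an SD of 0.339 in the log2 differences from its 2 partners, against 0.102 to 0.261 for the other libraries. Endothelial markers with a row summed to 1300 to 1320 FPKM in knockdown and 1310 to 1360 FPKM in control libraries, and of the 8 tested 1 rose and 0 fell in limma. The sum joins opposite shifts. In every knockdown library Pecam1, Cdh5 and Tek lay below all control libraries, as in 16.1% of tested genes. Kdr, Tie1 and Eng lay above them, as in 27.4%. Cldn5, a tight junction gene that marks brain endothelium, was listed at 0 in 5 of the 6 libraries. Of 9 leukocyte markers 6 had a row and summed to 214 to 257 FPKM in knockdown and 105 to 113 FPKM in control libraries. Nearly all of it was Cd68, which encodes a lysosomal membrane protein. The other 5 did not exceed 0.10 FPKM, Ptprc, the gene of the pan-leukocyte protein CD45, being at 0.00 in every knockdown library and at most 0.02 FPKM in a control library. Of the astrocyte markers, Aldh1l1, a folate enzyme gene, had 4.94 to 5.87 FPKM in knockdown libraries, against 1.06 to 1.14 FPKM in control libraries. The astrocyte markers Gfap and Slc1a3 did not exceed 0.02 FPKM. The part of the Cd68 and Aldh1l1 differences in the results was not tested. Fewer cells expressing a gene and less RNA per cell cannot be told apart in such bulk samples.

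All 10 genes passed the filter on low values. In knockdown libraries their order of mean FPKM, a level per length, was Pml (43.7), Trim25 (23.6), Parp12 (8.81), Phf11d (8.63), Parp9 (6.02), Trim30a (3.15), Dtx3l (2.65), Trim21 (2.23), Sp100 (1.98) and Parp14 (1.80). Parp12 overlapped Phf11d there, and the 5 lowest genes each overlapped the next. In control libraries the order was Pml (35.7), Trim25 (25.6), Phf11d (16.9), Trim30a (16.7), Parp12 (10.8), Parp9 (8.73), Sp100 (3.82), Parp14 (3.27), Dtx3l (3.10) and Trim21 (3.02). Phf11d and Trim30a overlapped there, as did Parp14 with Dtx3l and Dtx3l with Trim21; the other neighbours in the order did not. In 7 genes all knockdown libraries lay below all control libraries, which 16.1% of all tested genes also did. In 1 gene, Pml, all lay above, as in 27.4% of tested genes, and in Trim25 and Dtx3l the groups overlapped. With the libraries centred on their medians 9 genes lay all below, Trim25 and Dtx3l among them (background 21.1%), and with quantiles made equal or after GC correction 8 did, Trim25 among them (background 19.8% and 21.3%). The 7 genes first counted were past the threshold for lower genes (background 5.89%) and none of the 10 was past that for higher genes (background 12.0%), where Pml had an unadjusted p under 0.05. The lower ones past the threshold were 3 without control replicate 1, 4 without 2, 3 without 3 and 4 without knockdown replicate 6, and 4 with values scaled to TPM. They were 5 without knockdown replicate 5, with no filter or with quantiles made equal. With medians, after GC correction or with 0.1 added in place of 1 they were 6. Of 16 alternative settings, Trim21 did not pass in 10, Parp12 in 9, Parp9 in 5 and Parp14 in 2. The genes were chosen on this contrast, so these counts support nothing.

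**Figure D1:**
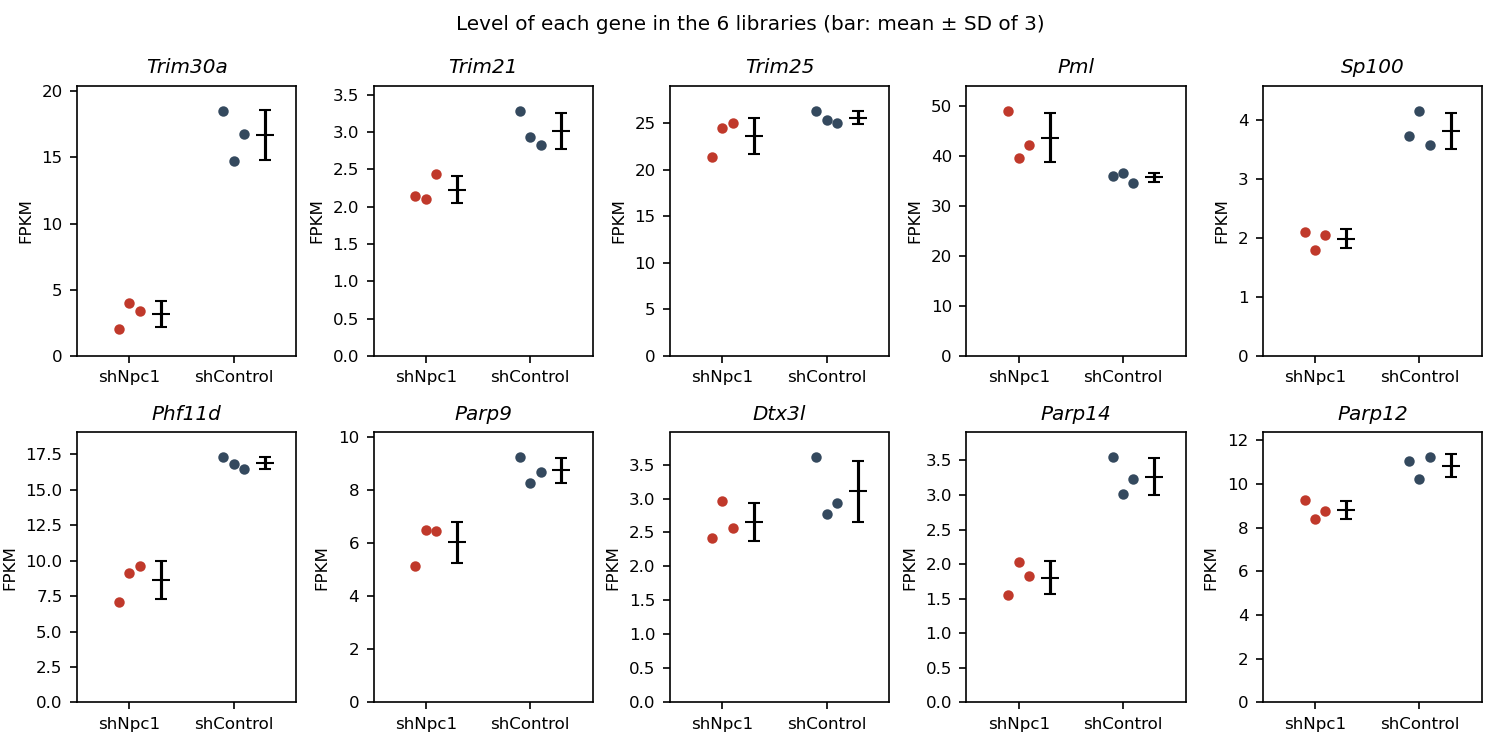
FPKM of the 10 genes in each library (points: replicates 4 to 6 of shNpc1 in red, 1 to 3 of shControl in dark blue, from left to right; black: mean ± SD of 3). Trim30a had 2.06 to 3.98 FPKM in knockdown and 14.74 to 18.54 FPKM in control libraries, while the groups overlapped for Trim25 and Dtx3l in these FPKM values.

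Among the TRIM genes, Trim30a differed most between the groups. In mouse cells its product restrains NF-kB signalling by promoting the breakdown of the adaptors TAB2 and TAB3. Trim30a (gene 20128) had 2.06, 3.98 and 3.41 FPKM in knockdown libraries 4, 5 and 6, against 18.54, 14.74 and 16.76 FPKM in control libraries 1, 2 and 3. The groups were far apart, and replicate 4 was the lowest of the knockdown libraries. The mean was 3.15 ± 0.986 FPKM in the knockdown and 16.7 ± 1.90 FPKM in the control (SD, n = 3 per group). The knockdown mean was 18.9% of the control mean. The log2 difference was -2.11 (SE 0.18), rank 5 from the lowest of the 10400 tested genes on this scale. With 0.1 added in place of 1 it was -2.41, against -2.90 for Npc1, which stood at -2.07 with 1 added. The authors' deposited table gives a log2 ratio of -2.42, by a method not given in the sources used here. Trim30a was also the most variable of the 10 within the knockdown group, with a coefficient of variation of 31.3% there, against 11.4% in the control group.

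Trim21 (gene 20821) encodes a cytosolic receptor for antibody Fc regions that ubiquitinates antibody-bound virus. It had 2.15, 2.10 and 2.44 FPKM in knockdown libraries 4, 5 and 6, against 3.29, 2.93 and 2.83 FPKM in control libraries 1, 2 and 3. The groups were separate by a narrow margin, and the log2 difference was -0.31 (SE 0.09). Trim25 (gene 217069) encodes the ligase that modifies the RNA sensor RIG-I and can also attach ISG15 to proteins. It had 21.36, 24.45 and 25.05 FPKM in knockdown libraries, against 26.36, 25.37 and 25.02 FPKM in control libraries. Replicate 4 lay clearly below the control range, replicate 5 narrowly below it and replicate 6 within it. The log2 difference of Trim25 was -0.11 (SE 0.08), against -0.05 without knockdown replicate 4 and -0.17 after GC correction.

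Sequences near the start of Trim30a and some of its relatives are shown because they hold this GAAA element. Windows from 250 bases before to 50 after annotated starts came from RefSeq (build GRCm38.p6), matched by symbol for 8 of the 10 genes. They were searched on both strands for GAAA followed, after any 2 bases, by GAAA (below, the GAAA pair), a core of the interferon-responsive element, and for TTCNNNGAA, the letters of the interferon-gamma-activated site. The GAAA pair was found in 3.44% and TTCNNNGAA in 8.30% of all 32851 windows. Of the 8 genes, Trim30a and Trim21 held the GAAA pair and none held TTCNNNGAA. The 250 bases before the first listed start of Trim30a follow, with the match in capitals, read here as its reverse complement.
Trim30a (chr7:104465194-104465443, minus strand): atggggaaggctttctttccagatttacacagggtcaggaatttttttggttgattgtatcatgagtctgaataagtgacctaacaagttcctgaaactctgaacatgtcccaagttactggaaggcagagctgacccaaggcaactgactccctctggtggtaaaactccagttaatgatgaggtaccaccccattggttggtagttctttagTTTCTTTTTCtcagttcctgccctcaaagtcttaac
The match began at position -36, counting the start as 0. Trim21 held a pair of overlapping matches from position 13, shown here as 30 bases with both in capitals.
Trim21 (chr7:102565447-102565476, minus strand): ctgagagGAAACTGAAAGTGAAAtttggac

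**Figure D2:**
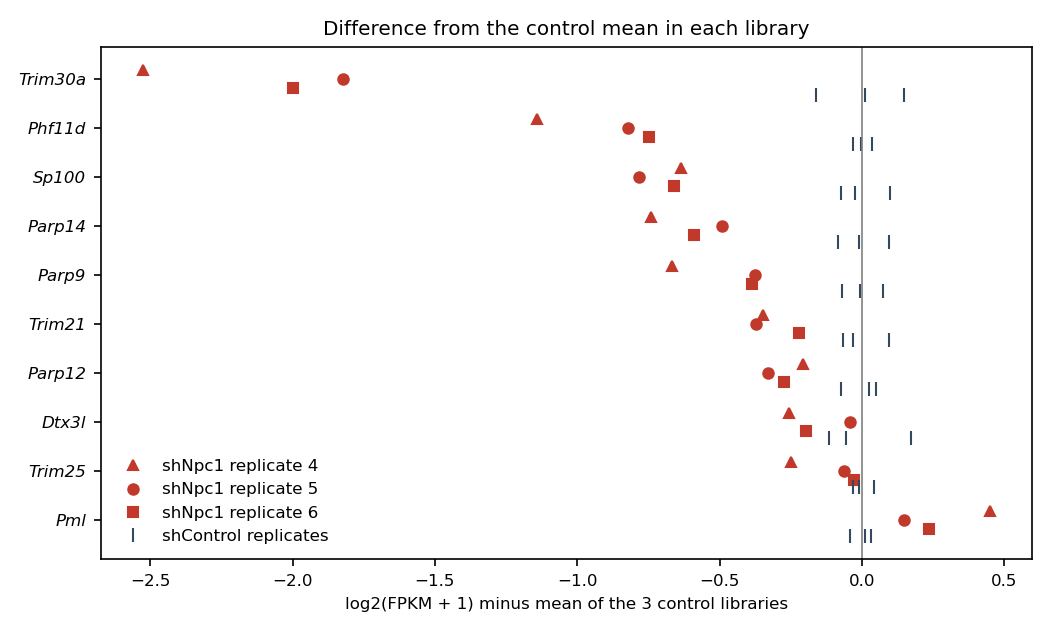
Difference of log2(FPKM + 1) from the mean of the 3 control libraries for each gene and library (red symbols: knockdown replicates 4, 5 and 6; dark ticks: control replicates). Trim30a ranges from -2.52 to -1.82 in the knockdown libraries, and Pml from 0.15 to 0.45, the only gene with all red symbols to the right of its ticks.

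Relatives of Trim30a lie beside it on chromosome 7, in the RefSeq order Trim34a, Trim5, Trim12a, Trim34b, Trim12c, Trim30b, Trim30c, Trim30a and Trim30d. These relatives were listed by family. Trim30d, the relative next to Trim30a, had 3.42, 7.37 and 6.52 FPKM in knockdown libraries 4, 5 and 6, against 11.63, 9.07 and 11.03 FPKM in control libraries 1, 2 and 3. The groups did not overlap, but the knockdown libraries spread widely, and the log2 difference of -0.82 (SE 0.24) missed the threshold in limma (adjusted p = 0.0561). It passed without knockdown replicate 4 (log2 -0.54, adjusted p = 0.00844) and without knockdown replicate 5 (adjusted p = 0.0259), and when the libraries were centred on medians (0.0388), set to equal quantiles (0.0299) or corrected for GC content (0.00912). The ratio of Trim30a to Trim30d was 0.602, 0.540 and 0.523 in knockdown libraries, against 1.59, 1.63 and 1.52 in control libraries. Trim30a was thus the less abundant of the pair per length in every knockdown library and the more abundant in every control library. Trim12c had a log2 difference of -0.51 (SE 0.16, limma adjusted p = 0.0741), which passed without knockdown replicate 4 (0.0384) or 5 (0.0453), with medians (0.0459), with quantiles (0.0311) and after GC correction (0.0273). Its log2 difference was -0.33 without knockdown replicate 4 and -0.28 after GC correction. Trim34a (log2 -0.28, adjusted p = 0.0787, and 0.0490 with medians) and Trim12a (log2 -0.27, adjusted p = 0.250) did not pass. That of Trim12a was -0.092 without knockdown replicate 4, and after GC correction it was -0.13, with Trim34a at -0.16 and Trim30d at -0.54. Trim5, Trim34b, Trim30b and Trim30c had means under 1 FPKM and were not tested. Near-identical copies may share reads, and how the authors assigned such reads is not given in the sources used here.

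Around their match to the GAAA pair, Trim30a and Trim30d were equal in all 50 bases, and Trim12c and Trim5 in 48 of 50. The stretches are set side by side, with the match in capitals.
Trim30a (chr7:104465200-104465249, minus strand): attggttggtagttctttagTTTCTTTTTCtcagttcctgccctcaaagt
Trim30d (chr7:104507861-104507910, minus strand): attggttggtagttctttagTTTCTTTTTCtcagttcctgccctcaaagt
Trim12c (chr7:104353349-104353398, minus strand): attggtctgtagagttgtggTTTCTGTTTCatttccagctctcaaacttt
Trim5 (chr7:104288126-104288175, minus strand): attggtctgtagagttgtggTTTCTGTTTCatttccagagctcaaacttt
The stretch of Trim12a, not shown, was equal to that of Trim5 in all 50 bases. Of the 13 relatives of the 10 genes with a row in the table, 7 held the motif in a window. These were Trim30d, Trim5, Trim12a, Trim12c, Trim34a, Phf11a and Phf11b. Of the 7, Phf11a and Phf11b fell, Trim5 was not tested and the others missed the threshold in limma. The windows of Trim34b, Trim30b and Trim30c did not hold the motif, nor did those of Phf11c, Sp110 and Sp140, of which Sp140 fell. A shared match describes these letters only.

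Pml and Sp100, the nuclear body genes, differed in opposite directions. Pml (gene 18854) encodes the scaffold of the bodies. It had 49.09, 39.68 and 42.25 FPKM in knockdown libraries 4, 5 and 6, against 35.95, 36.52 and 34.62 FPKM in control libraries 1, 2 and 3. Every knockdown value was above every control value, with replicate 4 the highest. The log2 difference was 0.28 (SE 0.09), short of the threshold for higher genes, and 0.14 after GC correction. Sp100 (gene 20684) encodes a constituent of the bodies that binds chromatin proteins. It had 2.10, 1.80 and 2.05 FPKM in knockdown libraries, against 3.73, 4.16 and 3.57 FPKM in control libraries. The groups were well separated and the knockdown libraries close together, at a ratio of 0.519. The log2 difference of Sp100 was -0.69 (SE 0.09), and -0.61 after GC correction. The ratio of Pml to Sp100 averaged 22.0 ± 1.38 in the knockdown and 9.37 ± 0.514 in the control (SD, n = 3 per group).

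Sp100 has relatives beside it on chromosome 1, in the order Sp110, Sp140 and Sp100. Sp140, which like SP100 encodes a chromatin reader, fell. It had 1.19, 1.19 and 0.99 FPKM in knockdown libraries 4, 5 and 6, against 2.22, 1.84 and 2.52 FPKM in control libraries 1, 2 and 3 (log2 -0.58, SE 0.11, limma adjusted p = 0.0128). The call was lost without control replicate 1 (adjusted p = 0.0661), control replicate 3 (0.0634) or knockdown replicate 6 (0.0573). Sp110 had 1.67 ± 0.131 FPKM in the knockdown and 1.82 ± 0.278 FPKM in the control (SD, n = 3 per group), a log2 difference of -0.07 (SE 0.10, adjusted p = 0.622). The difference between Sp110 and Sp140 was not tested.

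Phf11d (gene 219132) encodes a PHD finger protein, a fold that often reads histone tails. It had 7.11, 9.13 and 9.65 FPKM in knockdown libraries 4, 5 and 6, against 17.32, 16.85 and 16.51 FPKM in control libraries 1, 2 and 3. The control libraries were tightly grouped, the knockdown libraries all far below them, and replicate 4 was the lowest. The ratio was 0.511 and the log2 difference -0.90 (SE 0.11). Phf11d lies on chromosome 14 in the order Phf11a, Phf11b, Phf11d and Phf11c. Phf11b fell, with 1.17, 1.37 and 1.52 FPKM in knockdown libraries, against 3.29, 3.96 and 3.84 FPKM in control libraries (log2 -0.997, SE 0.10, limma adjusted p = 0.00186, passing under each of 16 alternative settings). Phf11a fell too, with 0.76, 1.37 and 0.96 FPKM in knockdown libraries, against 2.29, 2.29 and 2.61 FPKM in control libraries (log2 -0.75, SE 0.12, limma adjusted p = 0.00968, and 0.0555 without control replicate 3). The ratio of means was 0.366 for Phf11b and 0.43 for Phf11a, both lower than for Phf11d. Adding 1 lessened the log2 differences of Phf11a and Phf11b more than that of Phf11d. Phf11c had 0.00 to 0.22 FPKM in knockdown and 0.16 to 0.49 FPKM in control libraries and was not tested. Of the 8 tested relatives of the 10 genes, 3 fell (background 5.89%), and none had a positive log2 difference. Their median log2 difference was -0.55, against 0.03 over all tested genes. The GC content of these relatives ran from 39.5% to 49.6%. In the 3 lowest of 5 equal groups of tested genes by GC content the median log2 difference was -0.23, -0.05 and 0.06. The 8 stood in only 3 clusters and may share reads, so they are not independent of the genes they resemble.

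Phf11a and Phf11b were equal in 49 of 50 bases around their match to the GAAA pair, shown with the match in capitals. The window of Phf11d held no match, but across its start it read GAAACGAAA, a closer spacing that the search did not count. The 60 bases before its start, given for comparison, end inside that repeat. GAAA pairs with that closer spacing, read as the reverse complement, also stood in windows of Sp100 (log2 difference -0.69) and Sp110 (-0.07), among others. The share of all windows holding the closer spacing was not counted.
Phf11a (chr14:59297522-59297571, minus strand): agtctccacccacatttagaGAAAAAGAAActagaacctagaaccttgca
Phf11b (chr14:59341351-59341400, minus strand): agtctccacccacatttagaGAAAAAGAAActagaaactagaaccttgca
Phf11d (chr14:59365491-59365550, minus strand): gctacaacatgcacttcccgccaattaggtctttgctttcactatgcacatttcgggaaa

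**Figure D3:**
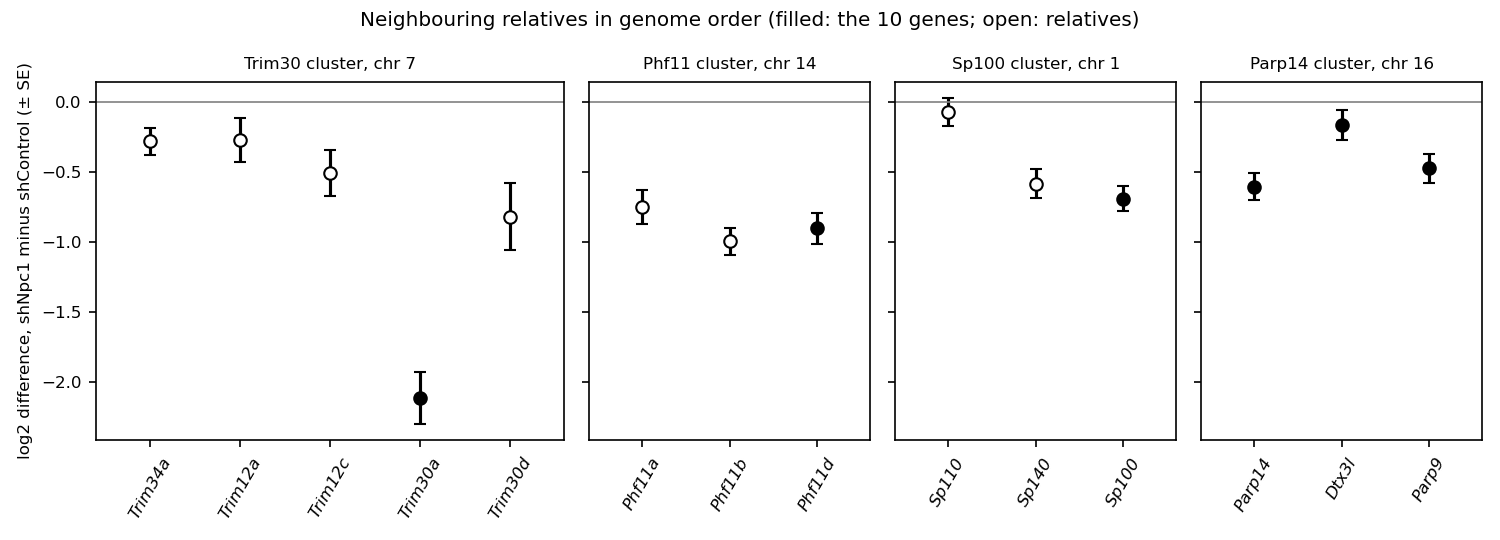
Log2 difference (knockdown minus control, ± SE, 3 libraries per group) of tested relatives that neighbour each other, in RefSeq order (GRCm38.p6) along each chromosome, filled for the 10 genes and open for relatives. Trim30a, at -2.11, lies well below Trim30d at -0.82, while Phf11a, Phf11b and Phf11d lie between -0.997 and -0.75. Adding 1 lessens the differences of genes at a few FPKM, and the ratios of means of these Phf11 genes were 0.43, 0.366 and 0.511.

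Parp14, Dtx3l and Parp9 are neighbours on chromosome 16, in that order. Parp14 (gene 547253) encodes a large mono-ADP-ribosyltransferase with macrodomains. It had 1.55, 2.03 and 1.83 FPKM in knockdown libraries 4, 5 and 6, against 3.55, 3.02 and 3.23 FPKM in control libraries 1, 2 and 3. The groups were separate, at a ratio of 0.552 and a log2 difference of -0.61 (SE 0.10). Parp9 (gene 80285) encodes a macrodomain protein that works in a complex with DTX3L. It had 5.12, 6.50 and 6.43 FPKM in knockdown libraries, against 9.23, 8.27 and 8.68 FPKM in control libraries. Replicate 4 was again the lowest, and the groups were separate, with a log2 difference of -0.48 (SE 0.10).

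Dtx3l (gene 209200), the partner of Parp9, had 2.42, 2.97 and 2.57 FPKM in knockdown libraries 4, 5 and 6, against 3.61, 2.77 and 2.93 FPKM in control libraries 1, 2 and 3. In FPKM the groups overlapped, with knockdown replicate 5 above 2 of the control libraries, and they were separate with the libraries centred on their medians. The log2 difference was -0.16 (SE 0.11), and -0.078 without control replicate 1. The ratio of Parp9 to Dtx3l was 2.12, 2.19 and 2.50 in knockdown libraries, against 2.56, 2.99 and 2.96 in control libraries. It was lower in each knockdown library than in any control library, though by little between knockdown replicate 6 and control replicate 1. The ratio of Parp14 to Dtx3l averaged 0.679 ± 0.0360 in the knockdown and 1.06 ± 0.0655 in the control (SD, n = 3 per group). Parp12 (gene 243771), on chromosome 6, encodes a mono-ADP-ribosyltransferase with RNA-binding zinc fingers. It had 9.25, 8.41 and 8.78 FPKM in knockdown libraries, against 11.05, 10.23 and 11.23 FPKM in control libraries. The groups were separate and the log2 difference was -0.27 (SE 0.07). Parp12 and Sp100 were the 2 genes of the 7 lower ones for which replicate 4 was the highest knockdown library.

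Across the 10 genes the median difference from the control mean was -0.49 in knockdown replicate 4, -0.37 in replicate 5 and -0.33 in replicate 6, and 0.06, -0.05 and -0.03 in control replicates 1, 2 and 3. Replicate 4 was the lowest knockdown library for 6 genes and replicate 5 for 4, and control replicate 1 was the highest control library for 7. The sign of the log2 difference was the same in all 10 genes under each of 16 alternative settings, a stability that the choice of the genes in part fixes. Leaving out replicate 4 changed the log2 difference of Trim30a to -1.91, of Phf11d to -0.78, of Parp9 to -0.38 and of Pml to 0.19. The 5 genes outside the list whose 6 values lay closest to the median profile of the 10 were Fam117b, Rrs1, Plau, Zfp207 and Aplp2, with root mean square differences of 0.014 to 0.034 on the log2 scale.

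GC content moved with the differences of all genes. Tested genes were put in 5 equal groups by the GC content of the longest coding transcript, and the median log2 difference was -0.23 in the group with the lowest GC content and 0.16 in that with the highest. Among the 10, Trim30a (40.8% GC) and Phf11d (42.1%) had the lowest GC content and the lowest differences, and Pml (55.3%) had the highest of both. After a correction for GC content Trim30a stood at -1.88, Phf11d at -0.71, Sp100 at -0.61, Parp14 at -0.56, Parp9 at -0.47, Parp12 at -0.34, Trim21 at -0.26, Trim25 at -0.17, Dtx3l at -0.10 and Pml at 0.14 on the log2 scale. The difference of Pml was thus 0.28 before the correction and 0.14 after it, and that of Trim30a changed by little relative to its size.

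**Figure D4:**
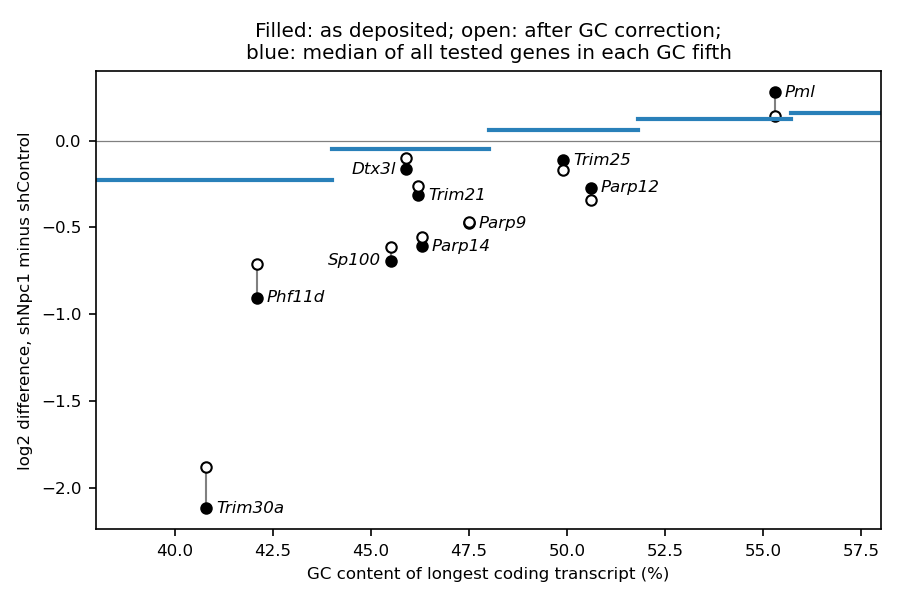
Log2 difference (knockdown minus control) of the 10 genes against the GC content of the longest coding transcript in percent, as deposited (filled) and after correction for GC content (open), with the median of all tested genes in each of 5 equal groups by GC content as blue lines. Pml lies at 0.28 before and 0.14 after correction, and Trim30a at -2.11 and -1.88.

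Other TRIM genes showed no common direction. Of 55 with a row, among them the relatives of Trim30a, 29 were tested, 1 fell and 2 rose, with a median log2 difference of -0.01 and a background of 5.89% lower and 12.0% higher. Trim65, a ligase for the RNA sensor MDA5, fell to 2.13 ± 0.115 FPKM in the knockdown, against 2.94 ± 0.236 FPKM in the control (SD, n = 3 per group; log2 -0.33, limma adjusted p = 0.0366). Trim54, best known from striated muscle, rose to 19.7 ± 2.76 FPKM in the knockdown, against 12.7 ± 0.746 FPKM in the control (log2 0.59, adjusted p = 0.0135), and Trim3 rose 1.20-fold (adjusted p = 0.0392). None of the 3 calls was kept without control replicate 1 (adjusted p of Trim65, Trim54 and Trim3: 0.141, 0.0564 and 0.142), 2 (0.0755, 0.0568 and 0.147) or 3 (0.153, 0.0713 and 0.137) or knockdown replicate 6 (0.113, 0.0580 and 0.133). At an unadjusted p under 0.05 there were then 3, 5, 3 and 5 lower and 3 higher each. Without knockdown replicate 4 there were 3 that fell and 5 that rose, and without knockdown replicate 5 there were 4 and 3. After GC correction Trim3 stood at log2 0.091 (adjusted p = 0.325), and its call was also lost with TPM (0.0714), median centring (0.0866) and quantiles (0.0741). That of Trim65 was lost with no filter (0.0531), TPM (0.0691) and quantiles (0.0548).

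Of 21 tested genes of other PARP proteins, ADP-ribose removal and Deltex ligases, 1 fell (background 5.89%) and 3 rose (background 12.0%). Their median log2 difference was 0.06. Parp8, a mono-ADP-ribosyltransferase gene, fell to 4.87 ± 0.814 FPKM in the knockdown, against 7.78 ± 0.483 FPKM in the control (SD, n = 3 per group; log2 -0.59, limma adjusted p = 0.0158). Those that rose were Dtx2, a Deltex ligase gene (1.43-fold, adjusted p = 0.00778), and the ADP-ribose hydrolase genes Adprh (1.45-fold, 0.0177) and Adprhl2 (1.36-fold, 0.0324). Parp10 (log2 -0.27, adjusted p = 0.162) and Zc3hav1, a relative of Parp12 that encodes the antiviral protein ZAP (log2 -0.22, adjusted p = 0.136), did not pass. Without control replicate 1, 2 and 3 and knockdown replicate 6 those that fell were 0 each, with 1 each at an unadjusted p under 0.05, and those that rose 1, 1, 0 and 1, with 5, 4, 4 and 4 at an unadjusted p under 0.05. Without knockdown replicate 4 there were 2 and 4, and without knockdown replicate 5 there were 1 and 4. After GC correction Dtx2 stood at log2 0.30, against 0.48 before, and Adprhl2 at 0.21, against 0.40 before. The call of Adprhl2 was lost with no filter (adjusted p = 0.0555), median centring (0.0665) and quantiles (0.0537).

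Of 33 tested genes of other nuclear body proteins and the SUMO pathway, 3 fell (background 5.89%) and 4 rose (background 12.0%). Their median log2 difference was -0.02. Isg20, an interferon-induced exonuclease gene, fell to 2.44 ± 0.358 FPKM in the knockdown, against 4.74 ± 0.399 FPKM in the control (SD, n = 3 per group; log2 -0.74, limma adjusted p = 0.00611), and did so under each of 16 alternative settings. The others that fell were Sp140, given above, and the SUMO protease gene Senp7 (ratio 0.559, adjusted p = 0.0381). Among those that rose were Sae1, which encodes a subunit of the SUMO-activating enzyme (1.26-fold, limma adjusted p = 0.0134), the SUMO ligase gene Pias4 (1.53-fold, 0.0117) and the chromatin gene Ubn1 (1.21-fold, 0.0421). Daxx, whose product binds PML, had a log2 difference of 0.07 (adjusted p = 0.550). Leaving out control replicate 1 or control replicate 3 gave 1 that fell and 0 that rose (6 and 5 higher at an unadjusted p under 0.05), leaving out control replicate 2 gave 2 of each, and leaving out knockdown replicate 6 gave 1 and 2. The call of Senp7 was lost in each of these 4 cases, with an adjusted p of 0.0750 to 0.141, and with no filter (0.0711) and TPM (0.0763). After GC correction Senp7 stood at log2 -0.45, against -0.70 before, and Pias4 at 0.38, against 0.57 before. GC correction left Ubn1 at log2 0.15, against 0.26 before (adjusted p = 0.158), and the call was also lost with TPM (0.133), median centring (0.0582), no filter (0.0585) and on leaving out any library but knockdown replicate 4 (0.0705 to 0.170).

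Upstream of these genes, 18 of 19 genes of interferon receptors, JAK kinases, STAT and IRF factors and their feedback were tested. In limma 3 fell (background 5.89%) and 0 rose (background 12.0%), with 2 higher at an unadjusted p under 0.05. Irf7, a factor that amplifies the response, had 7.48, 6.20 and 5.64 FPKM in knockdown libraries 4, 5 and 6, against 17.59, 20.97 and 18.96 FPKM in control libraries 1, 2 and 3. It fell by 1.44 on the log2 scale (SE 0.11, limma adjusted p = 0.000738), with the groups far apart. Usp18, which removes ISG15 and blocks the receptor, fell to 3.36 ± 0.686 FPKM in the knockdown, against 7.77 ± 0.0839 FPKM in the control (SD, n = 3 per group; log2 -1.02, limma adjusted p = 0.00304). Irf9, whose product binds DNA together with STAT proteins, stood at 79.8% of the control mean (limma adjusted p = 0.0424). Its call was lost on leaving out control replicate 1 (0.149), 2 (0.138) or 3 (0.146), or knockdown replicate 5 (0.0520) or 6 (0.107), and with no filter (0.0614), median centring (0.0628) and quantiles (0.0538). Stat2 (log2 -0.06, SE 0.08, adjusted p = 0.601) and Ifnar1, a receptor subunit gene (log2 -0.16, adjusted p = 0.149), did not pass. Scaled to TPM, 2 genes of this list rose, and without knockdown replicate 5, 1 rose.

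Of 11 tested genes whose products work with the TRIM proteins in sensing, 0 fell (background 5.89%) and 2 rose (background 12.0%) in limma. At an unadjusted p under 0.05, 1 was lower. The lowest log2 difference was that of Ifih1, the MDA5 gene, at -0.78 (SE 0.22, adjusted p = 0.0543). Ikbkg, a subunit of the kinase complex that activates NF-kB, rose to 14.7 ± 0.372 FPKM in the knockdown, against 10.5 ± 0.270 FPKM in the control (SD, n = 3 per group; log2 0.45, adjusted p = 0.00573), and passed under each of 16 alternative settings. Mavs, the adaptor of RIG-I, rose 1.24-fold (adjusted p = 0.0437), a call lost on leaving out control replicate 1 (0.152), 2 (0.123) or 3 (0.170), or knockdown replicate 6 (0.117). It was also lost after GC correction (log2 0.16, against 0.29 before, adjusted p = 0.0557), with median centring (0.101), quantiles (0.0858) and no filter (0.0632). Ddx58, the RIG-I gene and substrate of TRIM25, had a log2 difference of 0.06 (adjusted p = 0.551). Tab2 (log2 -0.25, adjusted p = 0.261) and Tab3 (log2 -0.27, adjusted p = 0.457), genes of the adaptors that TRIM30a acts on, did not pass. In this list 1 gene fell without knockdown replicate 4, and 1 without knockdown replicate 5.

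**Figure D5:**
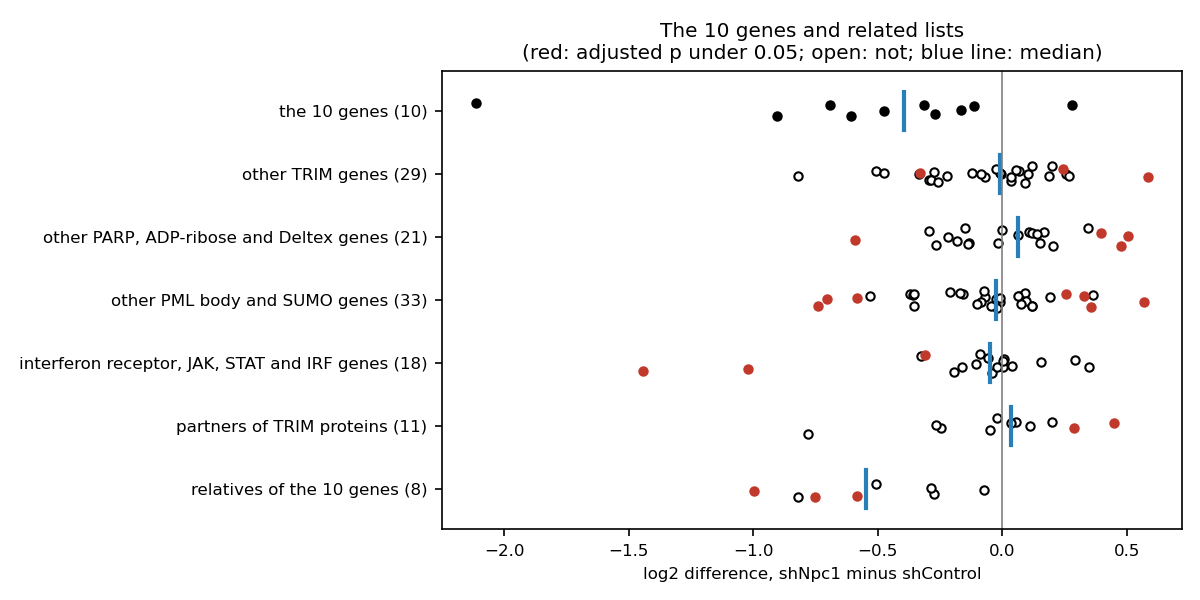
Log2 difference (knockdown minus control) of every tested gene in the 10 genes and 6 related lists (number tested in parentheses), red where the limma adjusted p was under 0.05, open where it was not, with the median as a blue line. The 10 genes are drawn in black, without a test. The medians lie at -0.40 for the 10 genes, -0.55 for their relatives and between -0.05 and 0.06 for the other lists.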

How the data were processed

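RNA was sequenced from 3 libraries of bEnd.3 cells with a hairpin against Npc1 and 3 with a control hairpin, grouped by their titles. FPKM values, rounded to 2 decimals, were deposited by the authors, with aligner, annotation and handling of shared reads not given in the sources used. The same table holds the authors' log2 ratio and the p-values and q-values of an unnamed test. Of these the log2 ratio of Trim30a is quoted, while the p-values and q-values of the authors are not used. Without counts the depth of each library is unknown, so no counting interval was given. No 2 libraries held the same values.

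FPKM were transformed to log2(FPKM + 1), genes with a mean under 1 FPKM were left out, and the test was that of limma 3.58.1 under R 4.3.3 (empirical Bayes with trend, Benjamini-Hochberg adjustment over all 10400 genes, threshold 0.05). The code was tested on simulated data. The 10 genes and all lists were chosen with earlier results of these data known. Named were the 10 genes, Npc1, the relatives, the 5 nearest profiles and up to 4 genes per list and direction past the threshold with the largest log2 difference. Members of lists that did not pass were named for their role, after their values were seen, and some genes of the lists are counted but not reported by name here. Alternatives were other pseudocounts, filters, scalings and variance settings, a correction for the GC content of the longest coding GENCODE M21 transcript (a spline with 5 degrees of freedom) and leaving out each library. Promoter windows and gene order were from RefSeq (GRCm38.p6); the build the authors used is not given, and no coordinate was taken from their files.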

Additional observations from a re-analysis of the deposited data

How the results depend on the processing

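FPKM hold no counts, so what depth limits could not be computed. No paired analysis was possible because the groups share no replicate number. Of the 10 genes, 4 were lower and 1 (Pml) higher past the threshold with values scaled to TPM, against 7 and 0. Without each library in turn these counts ran from 3 to 7 and from 0 to 1. Over all tested genes 1233 fell after GC correction, against 613, and the counts without each library ran from 160 to 1082 that fell and from 309 to 1907 that rose.

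Other TRIM genes that fell were 2 with no filter, 0 with TPM (5 at an unadjusted p under 0.05 in limma), 5 with median centring, 3 with quantiles and 4 after GC correction, against 1, and 0 to 4 without each library. Those that rose were 1 with median centring and 1 with quantiles, against 2, and 0 to 5 without each library. PARP, ADP-ribose and Deltex genes that fell were 3 after GC correction, against 1, and without each library 0 to 2 fell and 0 to 4 rose. Nuclear body and SUMO genes that fell were 5 after GC correction, against 3, and without each library 1 to 3 fell and 0 to 6 rose. Interferon receptor, JAK, STAT and IRF genes that fell were 5 after GC correction, against 3, those that rose were 2 with TPM, against 0, and without each library 2 to 3 fell and 0 to 1 rose. Partners of TRIM proteins that fell were 1 each with median centring, quantiles and GC correction, against 0. Those that rose were 1 each with no filter, median centring and quantiles, against 2, and without each library 0 to 1 fell and 1 to 3 rose. The cause of these shifts was not tested. No log2 difference of the 10 genes, of their tested relatives or of the genes named as past the threshold changed sign under an alternative.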
